A study of Schizosaccharomyces pombe with 8 samples.

Results

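The mating-type region of fission yeast (Schizosaccharomyces pombe) was described through the ligated DNA pairs that had at least 1 end on chromosome II between positions 2090000 and 2160000. In the interacting library 1359 of 101984 pairs met this rule, and in the de-crosslinked library 1495 of 123434 did. Copies of a single ligation, defined as pairs with both ends within 500 bp, were counted once as an event, which left 435 of 35511 interacting events (exact Poisson 95% interval 395 to 478) and 656 of 56018 de-crosslinked events (607 to 708). The region therefore held 1.22% and 1.17% of all events, on 0.557% of the genome, each event having 2 ends that can fall there. An event had both ends inside the region in 20 interacting and 6 de-crosslinked cases.

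Both libraries came from meiotic cells of genotype pat1-114 rec12D with Rec27 fused to GFP. The pat1-114 allele lets a temperature shift start meiosis, and rec12D takes away the enzyme that cuts DNA to begin recombination, so that neither library comes from cells with programmed breaks. Cells had been starved of nitrogen for 18 h, meiosis was begun at 34 °C, and harvest was at 3.5 h. In the interacting library the Rec27-GFP immunoprecipitate was ligated with its crosslinks in place, and in the de-crosslinked library only after they had been removed. There was 1 library per group, so no difference between the libraries has a replicate check. Intervals cover counting error only, and amplified copies are not independent molecules. Not analysed here were the other 6 of the 8 samples (Rec27-GFP in rec8D cells, and the FLAG-tagged proteins Rec25 and Rec27). The study's title names communication over long distances on meiotic chromosomes.

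Rec27 belongs to the linear elements, which form the axis of meiotic chromosomes in fission yeast, and it is known to bind strongly at hotspots of meiotic recombination. The mat1 cassette is expressed and sets the cell's mating type, P or M, while mat2 and mat3 are silent copies that serve as donors when mat1 switches. The silent domain is packaged in heterochromatin that needs the methyltransferase Clr4 and the methyl-histone reader Swi6, is bounded on each side by an inverted repeat, and is known as a region of very little meiotic recombination.

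The deposited positions were read on the RefSeq assembly ASM294v3. On it the mat1 cassette lies at chrII:2114100-2115422 and mat3 at chrII:2132467-2133789, 18.4 kb apart from start to start. The pair is identical over all 1323 bases. A second pair of repeats, at chrII:2129237-2131303 and chrII:2135026-2137092, is identical over 2067 bases in opposite directions and encloses mat3, with 1163 bp between the left repeat and mat3 and 1236 bp between mat3 and the right repeat. The assembly has 2 annotated genes at mat1 (mat1-Mi and mat1-Mc), 2 at mat3 (mat3-Mi and mat3-Mc) and 0 at mat2, so mat2 and the DNA that lies between mat2 and mat3 in other strains were not analysed here. The edges of the cassettes are shown because they mark where sequence shared by mat1 and mat3 gives way to unique DNA that can be measured. Capitals mark the copied sequence, lower case the flank beyond the last base at which the copies match without a break, and each line holds 60 bases of ASM294v3, 5′ to 3′. The lines are on the plus strand, at chrII:2114070-2114129, chrII:2132437-2132496, chrII:2115393-2115452 and chrII:2133760-2133819.
mat1 left edge: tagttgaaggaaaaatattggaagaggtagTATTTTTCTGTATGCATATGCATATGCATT
mat3 left edge: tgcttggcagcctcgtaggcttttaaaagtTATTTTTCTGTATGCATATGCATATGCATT
mat1 right edge: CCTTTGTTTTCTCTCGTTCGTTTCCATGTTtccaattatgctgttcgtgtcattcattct
mat3 right edge: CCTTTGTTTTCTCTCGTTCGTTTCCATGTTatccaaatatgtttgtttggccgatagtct

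The densest place in the region is shown as well. These 300 bases at chrII:2115907-2116206, plus strand, held more event ends than any other 300 bp of the region when both libraries were added. Capitals mark runs of 6 or more pyrimidines (C or T).
300 bp with most ends: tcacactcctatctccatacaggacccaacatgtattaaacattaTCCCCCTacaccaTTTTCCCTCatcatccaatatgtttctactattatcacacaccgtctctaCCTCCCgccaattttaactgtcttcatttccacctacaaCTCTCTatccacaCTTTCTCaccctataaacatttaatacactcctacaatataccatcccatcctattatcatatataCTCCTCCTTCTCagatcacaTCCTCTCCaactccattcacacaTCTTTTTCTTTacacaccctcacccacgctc

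Not a single pair of either library had an end between chrII:2129250 and chrII:2137075, a stretch of 7.83 kb that holds mat3 and nearly all of both inverted repeats. The last end before it lay 13 bp inside the outer edge of the left repeat, and the first end after it 17 bp inside the outer edge of the right repeat. The stretch thus ended, to within 17 bp, at the outer edges of the inverted repeats. No end can be assigned to the repeats beyond their edges, so with ends resuming outside them this match was fixed in advance. Most of the stretch cannot be measured: only sequence that occurs once can be assigned to a place, and 2663 bp of the stretch carry a 50 bp word that is unique in the assembly. In sequence that is not unique, the tables held 0 ends anywhere in the region, so the mat1 cassette and the repeats gave values only at their edges, on 98 unique bp each, with 0 to 4 pair ends in a library. The unique part is the DNA on either side of mat3. The rest of the region held 7.63 and 11.1 event ends per unique kb in the interacting and de-crosslinked libraries, which on 2663 bp comes to 20.3 and 29.6 event ends. A count of 0 in each library allows up to 3 event ends there (one-sided 95% limit), or 1.13 per unique kb. That limit was 6.77-fold below the density of interacting ends in the rest of the region, and 9.85-fold below that of de-crosslinked ends. It was 4.59-fold and 6.67-fold below the right arm alone, beyond the repeats and away from mat1. Against the adjoining 2 kb on the right it was 4.88-fold and 3.99-fold lower. These folds leave out the counting error of the density compared, which is wide for the 11 and 9 event ends of those 2 kb, so they are not lower bounds. The limits of the stretch were set by the nearest ends.

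An end adjoins the stretch on each side by definition, so the density of the DNA beside it was counted. The 2 kb to its left held 15 interacting and 21 de-crosslinked event ends, and the 2 kb to its right held 11 and 9. Per unique kb this is 7.50 and 10.5 on the left and 5.50 and 4.50 on the right, where the genome means were 5.87 and 9.26. The left flank takes in rpp202, which encodes an acidic ribosomal protein of the P2 type, and the right flank reaches into emc3, a gene of the endoplasmic reticulum membrane complex. Over the 3 chromosomes, 12102 bins of 1 kb had at least 500 unique bp, and 3 of them had no event end in either library, which is 0.0248%. All 3 lay in this stretch, so that 3 of the 63 such bins of the region were empty. Ranked by unique sequence, the stretch came first among 655 stretches of over 500 bp without an end, with 2663 bp against 1304 bp for the next. Its 2663 bp are not continuous, whereas the 1304 bp are. They lie mainly in 1163 bp left of mat3 and 1236 bp right of it, summed across repeated sequence to which no end can be assigned.

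**Figure D1:**
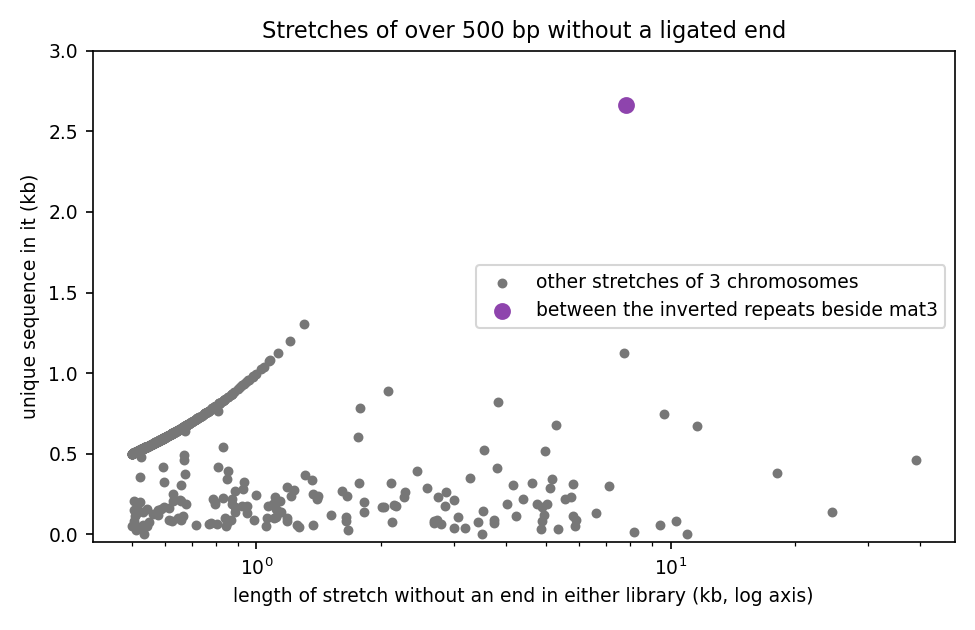
Each point is a stretch of over 500 bp in which neither library had a ligated end, with its length in kb on a log axis against the unique sequence in it in kb. The stretch around mat3 (purple) held 2.66 kb of unique sequence, summed across repeated sequence, and the next highest held 1304 bp without a break.

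Larger windows, which take in other known heterochromatin together with DNA beside it, held ends in both libraries. The most repeat-rich 100 kb of each chromosome, taken in place of the centromeres because the annotation used does not mark those, held 3.62 to 6.75 event ends per unique kb in the interacting and 6.42 to 11.3 in the de-crosslinked library. The highest of these values came from chromosome II, whose window begins inside atf1, a gene that overlaps the hot class. The first and last 100 kb of chromosomes I and II held 3.97 to 10.8 and 5.09 to 17.2. These averages can hide shorter gaps: 15.8 kb from the left end of chromosome II, chrII:15830-23555 held no end in either library over 7726 bp, of which 1124 bp are unique. The gene rec12, which the strain lacks by its genotype, had 1 event end in each library on 1279 bp, or 0.782 per unique kb. The labels give no mating-type genotype for the strain, and no input or untagged library was analysed here. Little Rec27 on this DNA and absence of this DNA from the strain therefore cannot be told apart. The aligner and the genome build are not given either, and how the authors' alignment treated this DNA was not tested.

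Outside the empty stretch, event ends were densest beside mat1. The 2 kb to the right of the mat1 cassette held 70 event ends in the interacting library (35.0 per unique kb, 27.3 to 44.2) and 90 in the de-crosslinked library (45.0, 36.2 to 55.3). These densities were 5.96 and 4.86 times the genome mean of 5.87 and 9.26 event ends per unique kb. The 2 kb to the left of mat1 held 22 and 48 event ends, 1.87 and 2.59 times the genome mean. Density was thus higher on the right side of the expressed cassette than on its left in both libraries, with intervals that do not overlap (6.89 to 16.7 on the left in the interacting and 17.7 to 31.8 in the de-crosslinked library).

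The right-hand peak was narrow and lay in a noncoding gene. Bin 2116001 to 2117000 held 39 interacting and 58 de-crosslinked event ends, more than any other 1 kb of the region in either library, and the bin before it held 28 and 31. Among the 12570 bins of the 3 chromosomes, 73 held more interacting and 112 held more de-crosslinked event ends than the first of these bins, and the median bin held 5 and 7. The 300 bp printed above held 22 event ends (13.8 to 33.3) and 35 (24.4 to 48.7), 12.5 and 12.6 times the genome mean. They begin 485 bp to the right of the cassette, inside the long noncoding RNA gene SPNCRNA.388 (chrII:2115592-2117167), which held 66 and 86 event ends in all. No protein coding gene overlaps that bin. The largest single event of the region, 50 interacting pairs that joined position 2115806 to 5443726 on chromosome I, had its end just left of these 300 bp, and counting events gives it a weight of 1.

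The letters of these 300 bp are unevenly divided between the strands. C and T make up 70.0% of the plus strand, in 8 runs of 6 or more pyrimidines, the longest of 12. Over all 41905 tiles of 300 bp, the share held by the commoner of purines and pyrimidines had a median of 53.3%, and 0.403% of tiles were at 70.0% or above. In the 300 bp with most ends of each of the 451 hot regions of the genome the median was 56.7%, and 39 of them (8.65%) were at 70.0% or above. These 300 bp were chosen for their ends and not for their composition, which is given as a description.

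Strings known from recombination hotspots were also counted, on both strands. The core of the M26 hotspot, ATGACGT, is bound by the Atf1-Pcr1 factor. It occurred 0 times in the region, while 133 of 178 windows of 70 kb (74.7%) hold it, with a median of 1 match. The shorter TGACGT, which is part of it, occurred 10 times, against a median of 12 and a presence in 100% of windows. Of the 10 matches, 2 lay in DNA the authors class as hot and 1 in the empty stretch, 453 bp to the right of mat3 on the minus strand. That match is shown in capitals at chrII:2134212-2134277, plus strand, because it sits in the unique DNA without ends.
TGACGT beside mat3: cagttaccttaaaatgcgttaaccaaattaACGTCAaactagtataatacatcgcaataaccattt

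**Figure D2:**
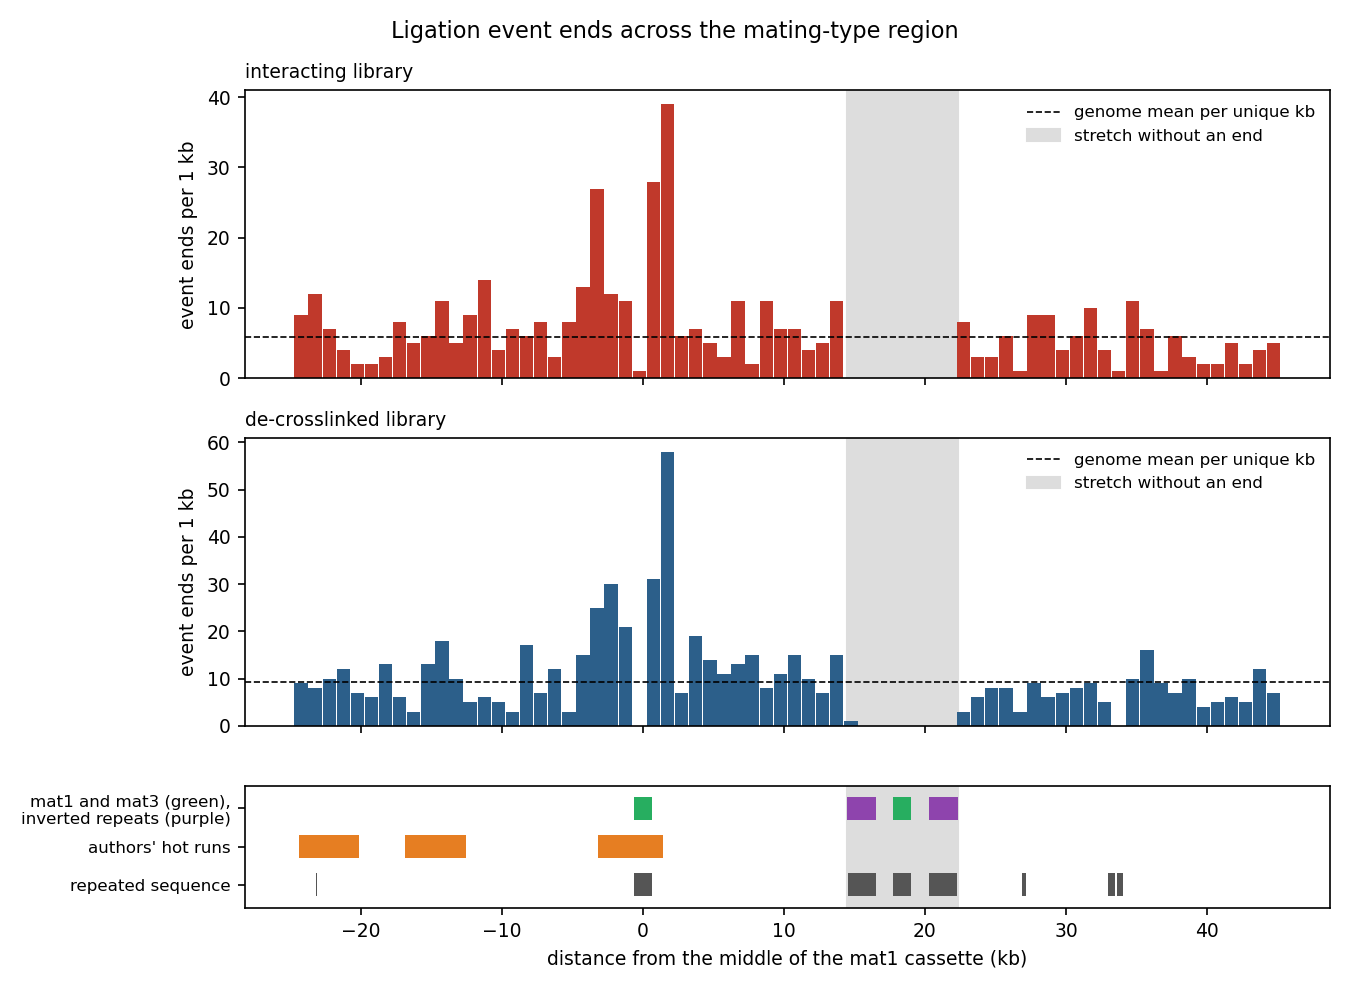
Bars give the event ends in each 1 kb bin of the interacting (top) and de-crosslinked (middle) library against the distance in kb from the middle of mat1, and the lower track marks the elements, the authors' hot runs and sequence that is not unique. Both libraries peak just right of mat1, at 39 and 58 event ends, and neither has an end in the grey stretch around mat3.

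Density differed between the arms of the region. The DNA left of mat1 held 8.20 event ends per unique kb in the interacting library (7.09 to 9.43) and 11.0 in the de-crosslinked library (9.70 to 12.4). Between mat1 and the left repeat the values were 10.6 (8.92 to 12.4) and 16.9 (14.8 to 19.3), and beyond the first 2 kb of that interval they were 6.43 and 12.2. To the right of the repeats they were 5.17 (4.25 to 6.22) and 7.52 (6.41 to 8.77), which is 0.880 and 0.812 times the genome mean. In both libraries the right arm was therefore the sparsest part with ends, below the left arm with no overlap of intervals. At the limits of the region, the 5 kb just inside the left limit held 34 and 46 event ends and the 5 kb just outside it 32 and 32. At the right limit 18 and 35 lay inside and 30 and 35 outside.

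The libraries shared the peak beside mat1, and by rank their profiles along the region were less alike. Over the 63 bins with enough unique sequence, event ends per unique kb had Pearson's r at 0.832 and Spearman's rho at 0.441 between the libraries. Pearson's r weighs the highest bins most. Those were the bins from 2115001 and 2116001, at 44.7 and 39.0 interacting and 49.4 and 58.0 de-crosslinked event ends per unique kb. Over all 12102 such bins of the genome the values were 0.825 and 0.393. The libraries share the strain genotype, the preparation and the reference, and the points share base composition.

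Taken whole, the region held 7.30 and 10.6 event ends per unique kb in the interacting and de-crosslinked libraries, 1.24 and 1.15 times the genome mean. Set among the 176 windows of 70 kb that tile the chromosomes and are mostly unique, it was above 156 by interacting and 135 by de-crosslinked ends, where the median windows held 5.52 and 8.55. Per kb of all sequence, with no allowance for repeats, the ratios were 1.15 and 1.06. This difference from other windows was not tested. Of the region's 455 interacting and 662 de-crosslinked event ends, 146 and 208 lay in the mat1 cassette and 4 kb on each side. That DNA has 8098 of the region's 62312 unique bp and stood at 3.07 and 2.77 times the genome mean. The density of the whole region thus does not describe all its parts.

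The authors' class divided the region unevenly. Runs of ends classed as hot covered 19.0% of it, against 22.9% of the genome, in 3 hot regions that all begin to the left of mat1. The hot region at mat1 (chrII:2111586-2116208) takes in part of rga7, which encodes a GTPase-activating protein, and the cassette, and held 80 and 123 event ends, 4.01 and 3.91 times the genome mean. The other two, at chrII:2090323-2094629 and chrII:2097859-2102227, held 32 and 42, and 31 and 45, which is 1.07 to 1.29 times the genome mean. From position 2116209 a cold run extended 66.8 kb to the right, across mat3 and past the end of the region. Of the 448 gaps between neighbouring hot regions on the chromosomes 21 were longer, and the median gap was 13.5 kb. The edge of the hot class crosses the densest bin: 24 of its 39 interacting and 32 of its 58 de-crosslinked event ends lay past that edge and are classed as cold. Of all event ends in the region, 31.4% (27.2 to 35.9) were hot in the interacting and 31.7% (28.2 to 35.4) in the de-crosslinked library, against 35.4% and 38.7% in the genome. Counted by pairs the direction turned in the interacting library, with 38.1% (35.5 to 40.6) hot in the region and 33.4% in the genome.

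**Figure D3:**
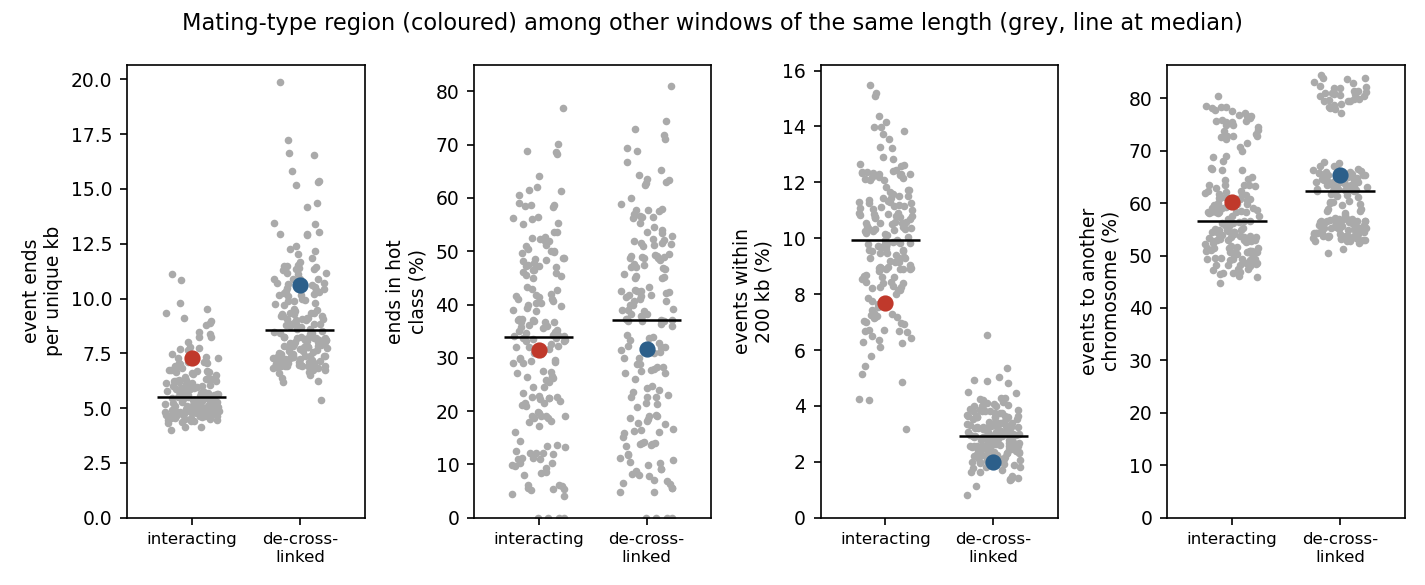
Each panel plots 1 measure for the mating-type region (coloured) and for 176 windows of 70 kb (grey, horizontal line at the median) in both libraries. The region lies above the median in event ends per unique kb, at 7.30 and 10.6, and below it in the share of events joined within 200 kb, at 7.67% and 2.00%. The counting intervals of these shares include the medians.

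Genes were measured with 500 bp on each side, per unique kb. Of the 34 protein coding genes that overlap the region, 30 had enough unique sequence, and 9 of these 30 overlap the hot class, as do 28.3% of the genome's protein coding genes. The median of the 30 was 6.47 and 8.58 event ends per unique kb in the interacting and de-crosslinked libraries, and the genome's median gene had 4.90 and 7.39. The gene rga7, left of mat1, had the most, with 60 and 87 event ends, or 3.41 and 3.28 times the median gene.

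Next in the de-crosslinked library came ctr6, a copper transporter of the vacuole, with 17 interacting and 35 de-crosslinked event ends. It was followed by SPBC23G7.10C with 15 and 37, the first coding gene right of the peak, and mag2, which encodes a DNA glycosylase, with 9 and 25. The genes SPBC1711.09C, SPBC23G7.13C, rpp202, the proteasome ATPase gene rpt6, the Hsp90 cochaperone gene aha1 and nvj2 completed the 10 highest, at 1.41 to 1.72 times the median gene by de-crosslinked and 0.897 to 1.93 times by interacting ends. The 5 lowest by de-crosslinked ends were rrb1, tam9, srp40, atg2402 and his2, all in the right arm, but rrb1, tam9 and srp40 were at 1.32, 1.44 and 1.34 times the median gene by interacting ends. The lowest by interacting ends, chosen after their values were seen, were SPBC18E5.10 at 0.609, atg2402 at 0.644, npl4 at 0.676, edc3 at 0.696 and emc3 at 0.757 times the median gene. SPBC18E5.10 and edc3 overlap the hot region at the left limit and extend past it. They cover nearly the same DNA on opposite strands, so their values are not independent. Histidine biosynthesis gene his2, which crosses the right limit, had 11 and 7 event ends, 0.918 and 0.387 times the median gene. Its place below the others in the de-crosslinked library rests on 7 event ends.

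The mating-type genes themselves were mostly out of reach. With their 500 bp flanks mat1-Mi and mat1-Mc, which encode a protein needed for entry into meiosis and an HMG-box transcription factor, held 4 and 2 interacting and 2 and 4 de-crosslinked event ends, all in the little unique sequence at the edges. The copies mat3-Mi and mat3-Mc held 0 in both libraries. Genes elsewhere with roles in silencing, mating-type switching or the pheromone and mating response were listed for context. Of 25 silencing genes 7 overlapped the hot class, as did 4 of 16 genes of mating-type switching and 7 of 23 of the pheromone and mating response, where 28.3% is the genome's share. Their median densities were 1.03, 1.11 and 1.10 times the median gene in the interacting and 0.917, 0.956 and 1.11 times in the de-crosslinked library. Within these lists ste11, the transcription factor gene that starts sexual differentiation, stood at 5.61 and 5.71 times the median gene, and sap1, whose product binds a switching element at mat1, at 2.37 and 3.31 times. Of the 64 list genes, with 2 kb allowed on each side, 10 were joined to the region by 11 interacting events and 19 by 26 de-crosslinked events. Under the same rule 17.1% and 24.5% of the 5079 protein coding genes outside the region were joined to it, and gene lengths were not matched.

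The second question was to what the region's DNA had been joined. Events with ends under 5 kb apart, 5 in each library, were set aside as shorter than a few sheared fragments. Of the remaining 430 interacting events, 33 had both ends within 200 kb on chromosome II, which is 7.67% (Clopper-Pearson 95% interval 5.34 to 10.6). Of 651 de-crosslinked events 13 did, which is 2.00% (1.07 to 3.39). The share was higher in the interacting library, with an odds ratio of 4.07 (2.06 to 8.54) in a two-sided Fisher's exact test (p = 9.16e-06, adjusted over 2 tests 1.83e-05). This test compares the 2 libraries, not the conditions. In the genome as a whole the same odds ratio was 4.26.

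Joins to other chromosomes were the commonest kind in both libraries. They made up 259 of 430 interacting events, 60.2% (55.4 to 64.9), and 425 of 651 de-crosslinked events, 65.3% (61.5 to 68.9). The odds ratio was 0.806 (0.621 to 1.04), and the two-sided Fisher's exact test gave p = 0.0942, also 0.0942 adjusted over the 2 tests, so the difference did not pass 0.05. Among 176 windows of 70 kb, 32 had a lower share of interacting events within 200 kb than the region, and 20 a lower share of de-crosslinked events, with medians of 9.93% and 2.92%. The region was thus on the low side of the windows in local joins in both libraries. Both medians lay inside the region's own intervals (5.34% to 10.6% and 1.07% to 3.39%), so this place is within counting error of the median.

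Distances were set against proportion, the number of events that would be joined at each distance if ends were joined in proportion to their number in the library. In the interacting library 33 events lay 5 to 200 kb apart against 11.7 by proportion, a ratio of 2.82 (1.94 to 3.96). The genome's ratio was 4.09, just above that interval. These 2 ratios are not matched by distance, since short distances make up less of the events by proportion in the region. At 20 to 50 kb it was 1.43 of 11.7 in the region and 164 of 1051 in the genome. They therefore cannot show fewer local joins in the region than in the genome. By distance, the region had 4 events at 5 to 10 kb (ratio 17.5), 7 at 10 to 20 kb (16.5), 12 at 20 to 50 kb (8.38, 4.33 to 14.6) and 8 at 50 to 100 kb (2.29). The genome's ratios at these distances were 23.0, 15.3, 7.79 and 3.15, inside the region's intervals in each case. At 100 to 200 kb the region had 2 events against 6.12 by proportion, a ratio of 0.327 (0.0396 to 1.18). The genome's ratio there was 1.26, just above that interval. In the de-crosslinked library the ratio over 5 to 200 kb was 0.705 (0.375 to 1.21) in the region and 1.06 in the genome. With only the ends between the first and last mat gene the ratios were 4.11 (2.39 to 6.57) and 1.44 (0.691 to 2.65), so that the de-crosslinked ratio passed from below 1 to above it. Counts of 2 to 12 events leave these ratios wide.

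**Figure D4:**
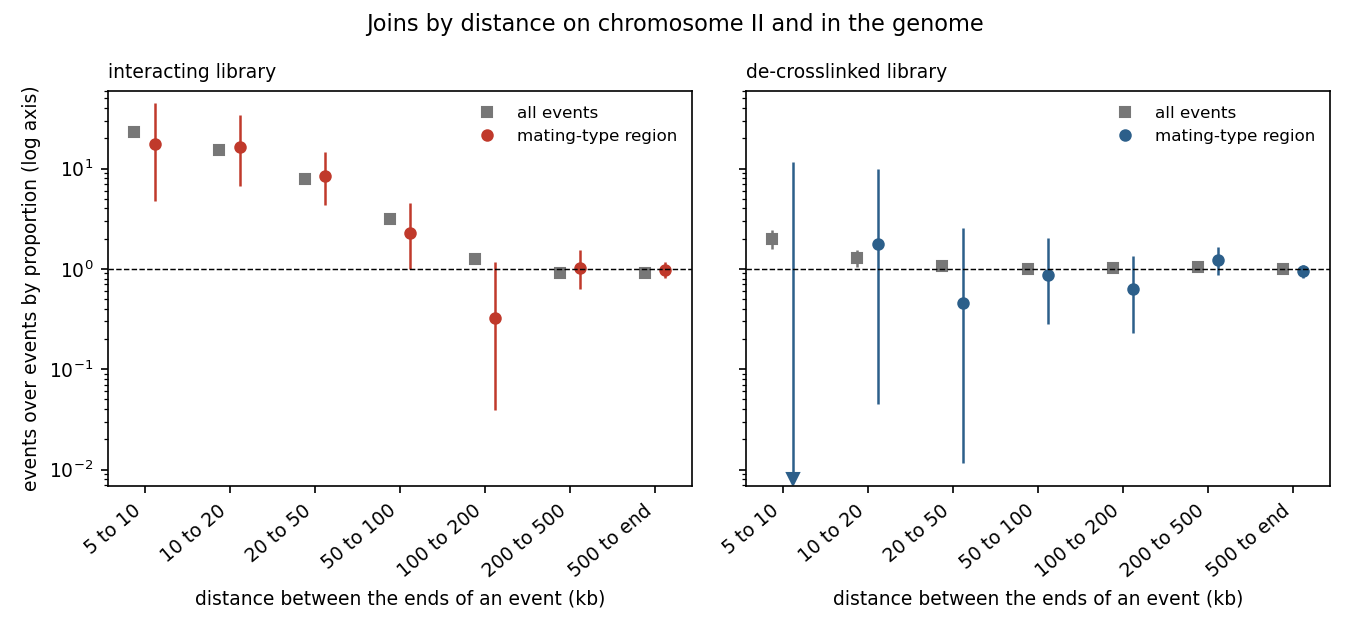
Points give the events at each distance in kb divided by the events by proportion, on a log axis, for the mating-type region (coloured, lines show exact Poisson 95% intervals) and all events (grey). In the interacting library the region falls from 17.5 at 5 to 10 kb to 2.29 at 50 to 100 kb, and the triangle in the de-crosslinked library marks 0 events.

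Some of the nearby events spanned mat1 or the empty stretch. Of the 33 interacting events, 15 passed over mat1, 11 over the stretch around mat3, 5 over both and 12 over neither. Of the 13 de-crosslinked events 7 passed over mat1, 7 over the stretch and 2 over both. The interacting events had a median distance of 34.0 kb and the de-crosslinked events one of 97.9 kb. Over the middle of mat3, with ends at least 10 kb apart and up to 50 kb to each side, 7 interacting events passed (2.81 to 14.4), against a median of 6 and a range from 2 to 11 between the 10th and 90th percentiles of 1198 points of the genome. For the de-crosslinked library it was 1 event against a median of 2. Counts of joins across the silent stretch were thus near the median for other points, within counting error. With 7 and 1 events they cannot show whether such joins were as frequent as elsewhere.

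**Figure D5:**
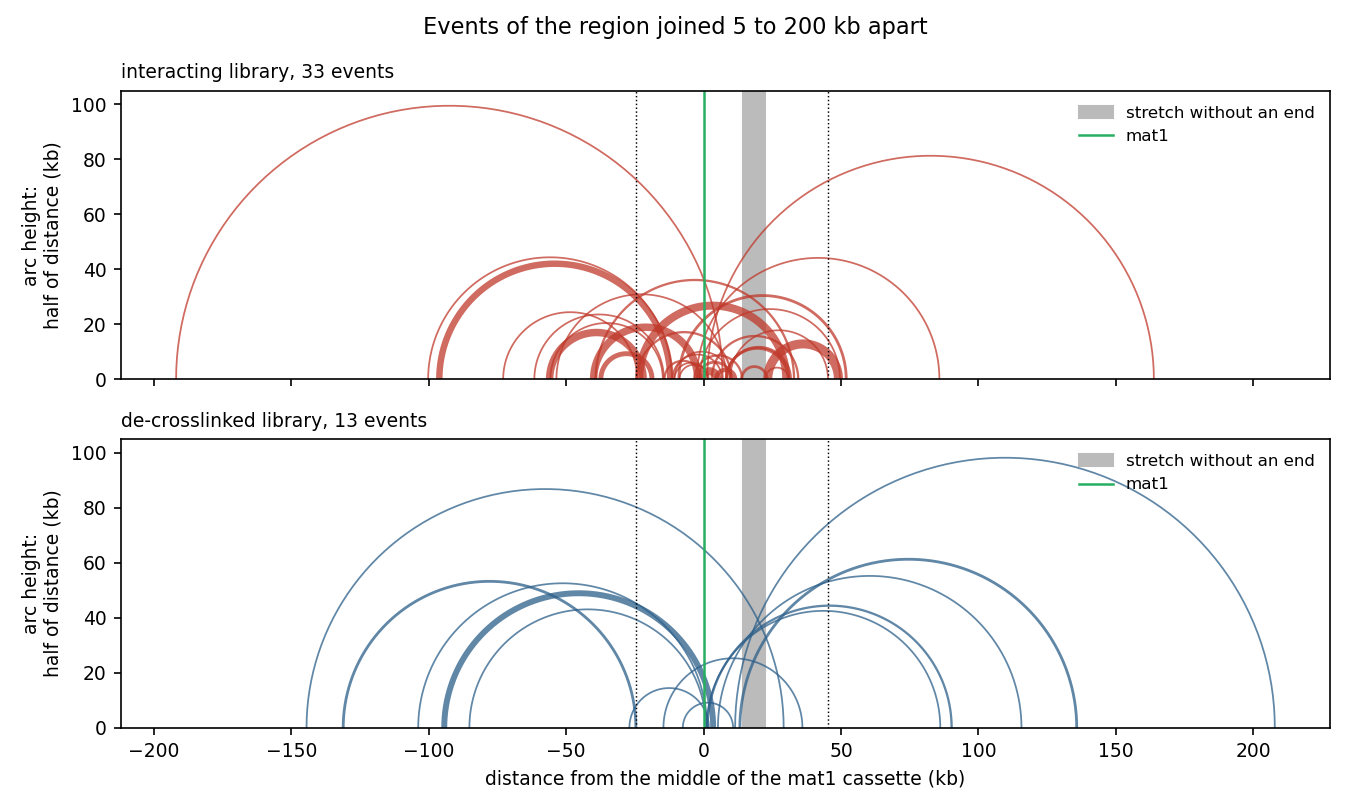
Each arc is an event whose ends lay 5 to 200 kb apart, with at least 1 end in the region (dotted limits), drawn by distance in kb from mat1, and thicker arcs stand for more pairs. The 33 interacting events have a median distance of 34.0 kb and the 13 de-crosslinked events one of 97.9 kb.

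Within the region, joins were counted between 3 zones, the left arm, the DNA from mat1 to the left repeat and the right arm. Of the 16 interacting events, 8 (3.45 to 15.8) joined the left arm to the middle, 4 (1.09 to 10.2) the middle to the right arm and 1 the left arm to the right, with 1 inside each zone. The de-crosslinked library had 2 such events, 1 from the left arm to the middle and 1 from left to right. The share of interacting events joined within 200 kb was 11.0% in the left arm, 11.9% in the middle and 7.34% in the right arm. For de-crosslinked events the shares were 1.15%, 4.31% and 1.25%. An event that joins different zones counts in both, so these shares cannot be set against the whole region's 7.67% and 2.00%. The intervals of the 3 zones overlap in each library.

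The 10 interacting events 20 to 200 kb apart with most pairs give the local joins by name. The largest, with 15 pairs over 25.7 kb, joined the flank of emc3 in the right arm to pwp1. Another of 13 pairs joined SPBC18E5.09C at the left limit to tam9 in the right arm over 53.6 kb and so passed over both mat1 and mat3. Events of 12 pairs joined ort1, the ornithine transporter gene, to edc3, a gene of mRNA decapping, over 34.0 kb, and cyt1, the cytochrome c1 gene, to rga7 over 37.9 kb. An event of 10 pairs joined ppk32 to nif1 over 84.1 kb. The other five had 2 or 3 pairs each, and joined sui1 to prp16, SPBC23G7.13C to tam9 and to rrb1, SPBC18E5.01 to rrb1, and SPBC18E5.09C to SPBC23G7.13C. The last is tied with an event of 2 pairs from the flank of SPBC23G7.10C to aha1. SPBC23G7.13C occurs in 3 of these events, tam9 in 2 and rrb1 in 2, and the events from SPBC23G7.13C to tam9 and to rrb1 start close to each other.

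The local joins were also counted by the authors' class. Of the 33 interacting events 2 joined hot to hot, 12 hot to cold and 19 cold to cold, and of the 13 de-crosslinked events the counts were 1, 6 and 6. Of all local events of the genome, 16.5% of the interacting and 13.7% of the de-crosslinked joined hot to hot, and the difference from the region was not tested. The 2 kb right of mat1, with 70 and 88 events at least 5 kb apart or between chromosomes, had 3 and 5 of them within 200 kb, and 62.9% (50.5 to 74.1) and 62.5% (51.5 to 72.6) to other chromosomes. Partners of these 2 kb were hot in 42.9% (31.1 to 55.3) and 51.1% (40.2 to 61.9) of cases, and 35.5% and 38.7% of the ends in the libraries are hot.

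Partners elsewhere followed the number of ends in the library. Of 414 interacting partners outside the region 33.3% (28.8 to 38.1) were hot, and of 649 de-crosslinked partners 40.4% (36.6 to 44.3) were. The repeat-rich 100 kb of the 3 chromosomes took 2 interacting partners, 0.483% (0.0586 to 1.73), where they hold 1.22% of library ends, and 9 de-crosslinked partners, 1.39% (0.636 to 2.62), where they hold 1.26%. The ends of chromosomes I and II took 11 and 13 partners, 2.66% (1.33 to 4.70) and 2.00% (1.07 to 3.40), where they hold 2.37% and 2.17%. Joins of the region to these repeat-rich windows and chromosome ends thus lay within counting error of the library's own share in both libraries.

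The libraries were also compared bin by bin. In bins of 5 kb with at least 10 event ends, the share of event ends in the interacting over that in the de-crosslinked library was 2-fold or more higher in 0 of 13 bins and 2-fold or more lower in 0, where 1.1% and 1.02% of the genome's 2455 bins were. With 13 bins a count of 0 is near that background, and counting every pair gave 1 bin past 2-fold. The ratios ran from 0.652 in the bin from 2150001, at SPBC1711.09C, to 1.58 in the bin from 2145001, which holds tam9 and rrb1, with a median of 1.11. The bin with mat1's right flank had a ratio of 1.04, with 85 and 129 event ends. The 5 kb that hold mat3 had too few ends for a ratio.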

How the data were processed

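The deposited tables list ligated pairs of Rec27-GFP immunoprecipitates as chromosome and position of each end with the authors' hot or cold class. Counts were made here by counting these deposited pairs. Per the labels' protocols, chromatin was sheared to about 1000 bp, ligated, amplified and made into libraries of about 300 bp fragments. Per the submitters' processing notes CASAVA 1.8.0 was used. The aligner, the genome build and the rule for hot and cold are not given in the sources used here. The deposited values hold pairs at least 1999 bp apart.

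Positions fell in sequence that is not unique in ASM294v3 0 times in the region, against 9 interacting and 10 de-crosslinked ends when moved by -100 bp and 16 and 3 when moved by 100 bp. Pairs with both ends within 500 bp were linked and counted once, at the median pair. Density was counted per base covered by a unique 50 bp word. Events 5 kb apart or more entered the comparisons of joins. Proportion was calculated from the number of library ends at each distance, without resampling. Python 3.11.15, numpy 2.4.6, pandas 2.3.3, scipy 1.17.1 and matplotlib 3.10.9 were used. The event and proportion code was tested on simulated data. Depth is 101984 and 123434 pairs.

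Named genes are the mat genes, listed genes in the region, the 10 genes with most and 5 with fewest event ends per unique kb in the de-crosslinked library, genes at the 5 densest bins of each library, and genes at the 10 interacting events 20 to 200 kb apart with most pairs. The region, lists and tests were chosen with earlier results of these data known. Zones that were to use mat2 were drawn from mat1 and the inverted repeats, and repeat-rich windows stand for centromeres, since the annotation used marks neither. Alternatives changed the linking distance, the limits of the region, the word length, the smallest and largest distance and the bins. The sequence at the edges of the inverted repeats is not reported here.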

Additional observations from a re-analysis of the deposited data

How the results depend on the processing

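Over 69 recomputed values, 54 kept their side of the threshold or stayed within the counting interval. The share of events joined within 200 kb stayed higher in the interacting library, with p under 0.05, in all 10 alternatives tried. Moving the limits 10 kb inward gave densities of 1.45 and 1.26 times the genome mean in the interacting and de-crosslinked libraries. Moving them 10 kb outward gave 1.05 in the de-crosslinked library, hot shares of 25.5% and 26.3%, and a difference in joins to another chromosome of -7.00 points (Fisher's exact p = 0.0103), which then passed 0.05. Keeping only ends between the first and last mat gene gave densities of 1.64 and 1.67, a hot share of 24.3% in the de-crosslinked library, and ratios to proportion of 4.11 and 1.44. Density per kb of all sequence was 1.06 in the de-crosslinked library. Counting every pair gave a hot share of 38.1% in the interacting library, where the genome's was 33.4%, a difference in joins to another chromosome of -7.16 points (Fisher's exact p = 9.67e-05), and 1 bin of 5 kb past 2-fold. The cause of these changes was not tested, but pairs count copies of 1 ligation many times. With 36 bp and 100 bp words the stretch without ends held 2579 and 2963 unique bp. No paired analysis was possible because the labels carry no replicate numbers and each group has 1 library. Shares of rare joins are limited by depth, with 33 and 13 events within 200 kb.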
